A study of Mus musculus with 8 samples.

Results

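Matricellular proteins are secreted glycoproteins that sit in the extracellular matrix and act on cells more than they bear load. They bind collagen, growth factors and cell surface receptors such as integrins, and several of them are made in large amounts by bone-forming cells. The 10 genes described here include the thrombospondins 1 to 4 (Thbs1, Thbs2, Thbs3 and Thbs4) and the fifth thrombospondin, cartilage oligomeric matrix protein (Comp). The others encode the collagen-binding protein osteonectin (Sparc), its relative hevin (Sparcl1), tenascin-C (Tnc), periostin (Postn) and fibronectin (Fn1), a fibril-forming matrix protein. All 10 genes were taken by symbol from a table of 47706 genes, in which each of the 10 has 1 row.

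Expression was measured by RNA sequencing in primary calvarial osteoblasts, cells digested from the skullcap of newborn mice. All 8 cultures were differentiated for 7 days and starved of serum, after which 4 received parathyroid hormone (PTH, the 1-34 fragment), which acts on osteoblasts through a receptor that raises cyclic AMP, and 4 received vehicle for 24 hours. The labels mark all 8 samples as Con without saying what that stands for, and the sources used here give neither the strain nor the genotype of these cultures, nor whether samples came from separate animals, so p-values measure the spread between these samples, which may be technical. The labels call the differentiation adipogenic, whereas the study's methods describe osteogenic medium. Total counts lay between 33605610 and 56090654 with PTH and between 41618108 and 46757836 with vehicle, so that even Sparcl1, the least abundant of the 10 genes, had 627 to 1186 counts per sample. Values are CPM, counts scaled to a common library size normalized by edgeR's TMM method, given as means ± SD of 4 samples.

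Osteoblast markers summed to between 73291 and 106046 CPM over the 8 samples, and 3 of the 11 were lower with PTH. Markers of other cells summed to between 402 and 487 CPM for adipocytes, 1052 and 2132 for macrophages, 807 and 1140 for chondrocytes, 2534 and 3893 for tendon, 4.72 and 7.94 for muscle and 8.79 and 10.8 for endothelium, where Emcn was at 0. Several sums, that of the osteoblast list included, rest mostly on 1 or 2 abundant genes, namely Col1a1 and Col1a2 for osteoblasts, Lyz2 (748 to 1593 CPM) for macrophages, Fmod and Tnmd for tendon, and Lpl (378 to 446 CPM) for adipocytes, whose defining genes Adipoq (2.71 to 4.67 CPM) and Plin1 (5.71 to 8.51 CPM) were low. Of the macrophage markers, 3 of 10 tested were higher with PTH and 0 lower, and the counts were 2 higher and 0 lower of 10 for chondrocytes, 1 and 2 of 5 for tendon, 1 and 1 of 3 for muscle, 1 and 1 of 6 for endothelium and 0 and 0 of 6 for adipocytes. Beside these counts and that for osteoblasts, 23.3% of all genes tested were higher and 22.5% lower. No marker list was tested as a set. Tnfsf11, which encodes the osteoclast factor RANKL and is a known PTH target, went from 1.42 ± 0.365 to 128 ± 20.0 CPM, higher in every PTH-treated sample, as a check of the labels (log2 fold change 6.48, edgeR, adjusted p = 4.28e-11). Pth1r, the PTH receptor gene, fell by 0.70 on the log2 scale (edgeR, adjusted p = 4.43e-04).

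Of the 10 matricellular genes, 1 passed the edgeR test between PTH and vehicle. Thbs1 fell by 36.8% (95% interval of the change -46.1% to -25.9%), and the other 9 did not pass the test, with log2 fold changes between -0.35 and 0.17. The test was edgeR's two-sided quasi-likelihood test with Benjamini-Hochberg adjustment over all 16736 genes tested, at an adjusted p under 0.05. Among all genes tested, 23.3% were higher and 22.5% lower with PTH, so that 1 lower and 0 higher of 10 is no excess over the background. At an unadjusted p under 0.05 there were 2 members by edgeR, both lower, beside 8759 of all 16736 genes tested. DESeq2, another count test and the one the study used, called Thbs1 and Thbs2 lower and Fn1 higher at an adjusted p under 0.05. It called 3794 genes lower and 4119 higher among the 20812 with an adjusted p. The median log2 fold change of the 10 was -0.02, beside -0.0008 for all genes, the middle 50% of which lay between -0.32 and 0.38. In bulk samples, fewer cells of a type and less RNA per cell cannot be told apart.

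**Figure D1:**
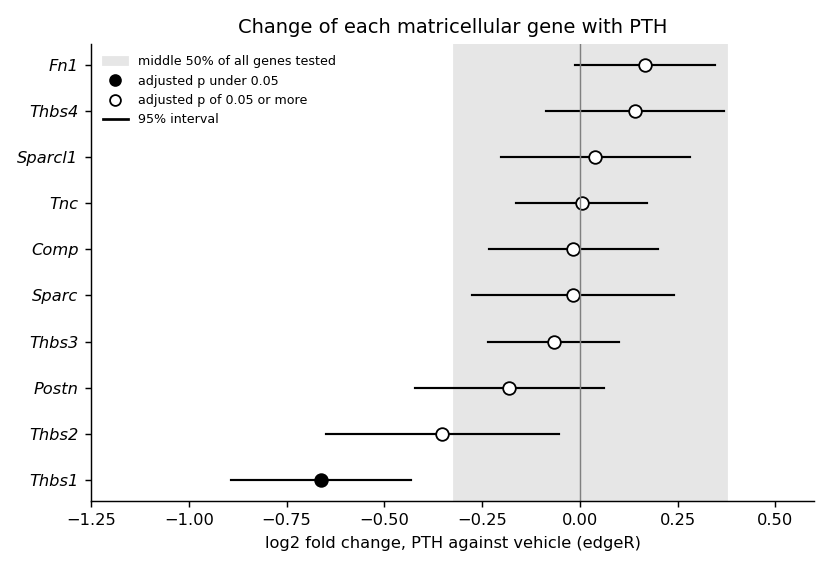
Log2 fold change of each gene, PTH against vehicle, with its 95% interval from edgeR (n = 4 samples per treatment). The filled point marks an adjusted p under 0.05 and the grey band the middle 50% of all genes tested. Thbs1, at -0.66, has the only filled point, and the points of the other genes from Postn to Fn1 lie inside the band.

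Thbs1 encodes thrombospondin-1, a trimeric protein that activates latent TGF-β and restrains the growth of blood vessels. It lies on chromosome 2 from 118111876 to 118127133 (GRCm38, plus strand, GENCODE M21). With vehicle it had 8723, 8679, 8342 and 7414 CPM in replicates 1 to 4, and with PTH it had 5578, 4499, 5070.2 and 5812 CPM. Every PTH-treated sample was below every vehicle-treated sample, by more than the spread within either treatment. The mean went from 8289 ± 608 to 5239.7 ± 583 CPM (edgeR, log2 fold change -0.66 with a standard error of 0.105, adjusted p = 2.89e-04). The exact two-sided permutation test gave p = 0.0286, the smallest that the 70 assignments of 4 and 4 samples allow. Non-overlap of this kind was common, since 21.8% of all genes tested were lower in every PTH-treated sample and 21.2% were higher. Thbs1 passed the test in each of the 8 fits that dropped 1 sample, with log2 fold changes between -0.72 and -0.58.

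Thbs2 encodes thrombospondin-2, the closest relative of thrombospondin-1 and likewise a trimer, which is known as an inhibitor of vessel growth and a regulator of collagen fibrils. Its gene is on chromosome 17 from 14665500 to 14694235. It had 4000.5, 3986, 3865 and 3041 CPM with vehicle and 3556, 2289.8, 2745 and 3077 CPM with PTH. Vehicle replicate 4 stood below the other vehicle samples and below 2 of the PTH-treated samples, so the treatments overlapped. The log2 fold change was -0.35 (95% interval -0.65 to -0.05, edgeR, adjusted p = 0.0528), and the exact permutation test gave p = 0.0857. Thbs2 passed the test without vehicle replicate 4 (edgeR, log2 fold change -0.44, adjusted p = 0.0269) or without PTH replicate 1 (-0.46, adjusted p = 0.0072), and also in DESeq2 (adjusted p = 0.0232), while its log2 fold change was -0.24 without PTH replicate 2 (edgeR, adjusted p = 0.119). In vehicle replicate 4, osteoblast markers (87768 CPM) and macrophage markers (1707 CPM) summed to more than in the other vehicle samples (76721 to 84501 and 1052 to 1289 CPM) and tendon markers (2881 CPM) to less (3357 to 3639 CPM), and their part in this result was not tested.

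The thrombospondins of the other subgroup form pentamers, and none of them passed the test. Thbs3, on chromosome 3 from 89215180 to 89226837, had 51.2, 52.4, 53.0 and 45.3 CPM with vehicle and 52.0, 47.0, 43.7 and 49.9 CPM with PTH. Thbs4, on chromosome 13 from 92751590 to 92794818, had 30.8, 33.4, 36.4 and 30.1 CPM with vehicle and 34.1, 29.9, 37.8 and 42.1 CPM with PTH. Comp, a cartilage and tendon protein gene on chromosome 8 from 70373558 to 70382066, had 150.1, 136, 126 and 106 CPM with vehicle and 135, 116, 124 and 137 CPM with PTH. The treatments overlapped for all 3 genes. Their log2 fold changes were -0.07 for Thbs3 (95% interval -0.23 to 0.10), 0.14 for Thbs4 (-0.09 to 0.37) and -0.02 for Comp (-0.23 to 0.20), and edgeR's adjusted p was 0.507, 0.299 and 0.905. As percent changes the intervals run from -15.0% to 7.18% for Thbs3, -5.90% to 29.1% for Thbs4 and -14.9% to 14.8% for Comp, so changes of that size cannot be told from 0 here. The gene Mtx1, at 22.2 to 25.8 CPM, overlaps Thbs3 in the annotation, and the strand setting of the counting is not given in the sources used here.

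The stretch before the transcription start is shown for 2 thrombospondins with unlike letters there, Thbs2 and Thbs4, neither of which passed the test. Promoter windows from RefSeq (GRCm38.p6, 250 bases before to 50 after the start) were matched for 6 of the 10 genes, in 8 windows, and not for Thbs1, Fn1, Comp or Sparcl1. Printed are the 250 bases before the start, chr17:14694263-14694512 on the minus strand for Thbs2, whose RefSeq start lies upstream of the one in GENCODE, and chr13:92794819-92795068 on the minus strand for Thbs4. Capitals mark matches to the motifs searched on both strands.
Thbs2: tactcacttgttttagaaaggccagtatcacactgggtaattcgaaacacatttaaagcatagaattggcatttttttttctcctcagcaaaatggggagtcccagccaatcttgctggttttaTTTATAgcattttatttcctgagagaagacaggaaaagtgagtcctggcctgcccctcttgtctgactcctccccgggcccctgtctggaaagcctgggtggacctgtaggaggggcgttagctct
Thbs4: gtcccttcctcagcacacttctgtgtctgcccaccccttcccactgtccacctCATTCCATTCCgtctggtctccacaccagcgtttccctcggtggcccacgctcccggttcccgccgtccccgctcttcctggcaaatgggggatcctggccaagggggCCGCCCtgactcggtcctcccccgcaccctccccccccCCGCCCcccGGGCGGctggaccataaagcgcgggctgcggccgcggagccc
In Thbs2 the capitals are the TATA box letters TATAAA read on the other strand, beginning 126 bases before the start, and 13.6% of all 32851 windows hold these letters. The Thbs4 window is richer in G and C, with 72.0% against 48.3% for Thbs2 and a median of 52.7% over all windows. It holds the GC box letters GGGCGG 3 times, 89, 51 and 42 bases before the start (in 35.7% of all windows), and the TEAD letters GGAATG on the other strand at 197 and 192 bases before the start, the 2 matches sharing a base (in 14.7%). The cyclic AMP response element TGACGTCA, its 5-letter part TGACG and the AP-1 letters TGANTCA are in 1.79%, 20.8% and 7.81% of all windows, and in 0 of the 8 windows of these genes. A match is a description of letters and not a bound site.

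Sparc encodes osteonectin, one of the main non-collagen proteins of bone, and lies on chromosome 11 from 55394500 to 55423183. It had 16432, 16192, 16739.7 and 17638 CPM with vehicle and 19498, 13603, 15901 and 17206 CPM with PTH. In CPM the highest and the lowest of the 8 values were both PTH-treated samples. As a share of all counts the highest was vehicle replicate 4 (1.87%), above PTH replicate 1 (1.78%). The mean of 16552 ± 2465 CPM with PTH differed from 16750.3 ± 633 CPM with vehicle by less than the spread between replicates (log2 fold change -0.02, 95% interval -0.28 to 0.24, edgeR, adjusted p = 0.919). Sparcl1, on chromosome 5 from 104079111 to 104113733, had 22.7, 21.9, 17.9 and 18.1 CPM with vehicle and 23.1, 18.9, 18.3 and 22.4 CPM with PTH. Its treatments overlapped almost entirely (log2 fold change 0.04, 95% interval -0.20 to 0.28, edgeR, adjusted p = 0.794).

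Fn1, on chromosome 1 from 71585520 to 71653200, had 4226, 3994, 3935 and 3915 CPM with vehicle and 4278, 4412, 4450.1 and 4898 CPM with PTH. The lowest PTH value lay above the highest vehicle value (p = 0.0286 by the two-sided exact permutation test), but the nearest pair, PTH replicate 1 and vehicle replicate 1, were close. The log2 fold change was 0.17 (95% interval -0.01 to 0.35, edgeR, adjusted p = 0.119), and Fn1 passed in DESeq2 (0.16, adjusted p = 0.0362) and in 0 of the 8 edgeR fits that left out a sample. Thbs1 and Fn1 were the members whose treatments did not overlap in CPM. That is 1 of 10 lower and 1 of 10 higher with PTH, which is not above the 21.8% and 21.2% of all genes tested.

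Postn encodes periostin, which is made in the periosteum and binds collagen and fibronectin, and lies on chromosome 3 from 54361109 to 54391037. It had 2506, 2663, 2693 and 2487 CPM with vehicle and 2662, 1870.3, 2082 and 2520.0 CPM with PTH. PTH replicates 2 and 3 were below all vehicle samples, while replicates 1 and 4 were among them. The log2 fold change was -0.18 (95% interval -0.42 to 0.06, edgeR, adjusted p = 0.210), and it was -0.26 without PTH replicate 1, where it passed the test (edgeR, adjusted p = 0.0438), and -0.08 without PTH replicate 2 (adjusted p = 0.495). Tnc, a gene for a hexameric protein that interferes with adhesion to fibronectin, lies on chromosome 4 from 63959785 to 64047015. It had 477, 481, 471 and 487 CPM with vehicle and 487, 448, 444 and 545 CPM with PTH. The coefficient of variation was 1.44% with vehicle and 9.72% with PTH, and the treatments overlapped (log2 fold change 0.01, 95% interval -0.16 to 0.17, edgeR, adjusted p = 0.964).

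**Figure D2:**
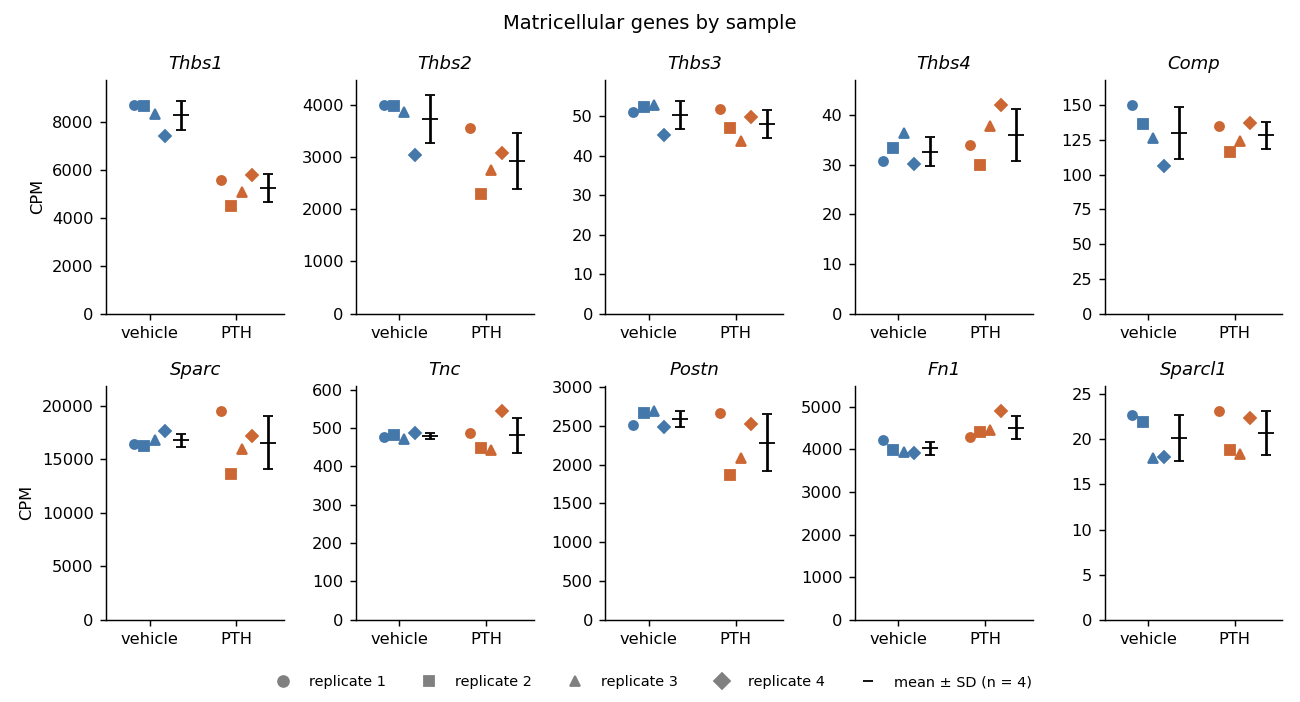
CPM of each gene in each of the 8 samples, with the mean ± SD of the 4 samples of each treatment beside the points. Marker shapes stand for replicate numbers 1 to 4, which pair no samples, and every axis starts at 0. The 4 PTH-treated samples of Thbs1 sit between 4499 and 5812 CPM, all below the vehicle samples, and most other panels overlap.

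The PTH-treated samples differed among themselves more than the vehicle samples did in 8 of the 10 genes, judged by the coefficient of variation. PTH replicate 1 held the highest of the PTH values in 5 genes and PTH replicate 2 the lowest in 6, and both held in 3. Vehicle replicate 4 held the lowest vehicle value in 7 genes. These counts were not made over all genes, so they show nothing particular to the 10. Over all genes tested, the second main axis of variation in log2 CPM (10.3% of the variance) ran from 43.6 in PTH replicate 1 to -42.0 in PTH replicate 2. Vehicle samples lay between -6.34 and 1.97 on that axis. The 10 genes together took between 3.73% and 3.80% of all counts with vehicle and 3.32%, 2.70%, 2.99% and 3.28% in PTH replicates 1 to 4. On the normalized scale the 10 genes summed to between 35181 and 36620 CPM with vehicle and to 36304, 27334, 30916 and 34309 CPM in PTH replicates 1 to 4, so that PTH replicate 1 lay among the vehicle samples. Summed per kilobase of transcript, PTH replicate 1 (11215 CPM per kilobase) lay above the vehicle samples (10346 to 10539). The sums per kilobase rest mostly on Sparc, which alone had 8478 CPM per kilobase in PTH replicate 1 and 7040 to 7668 with vehicle. In the CPM sums Sparc made up 19498 of 36304 CPM in PTH replicate 1 and 16432 of 36620 CPM in vehicle replicate 1. The same order of PTH-treated samples was seen in osteoblast markers, which summed to 106046, 73291, 73927 and 90925 CPM in PTH replicates 1 to 4, while macrophage markers summed to 1648, 2132, 2039 and 1826 CPM. PTH replicate 1 was also the deepest library and PTH replicate 2 the shallowest. The part of cell makeup or depth in these differences was not tested.

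Because Thbs1 shares its samples with the other genes, its ratio to each of them within a sample was also compared. The ratio of Thbs1 to each of the 9 others was lower in every PTH-treated sample than in every vehicle-treated sample. These ratios all hold the same Thbs1 values, and Thbs1 was the member that passed the edgeR test. The ratios are therefore given as a description of its fall relative to the other genes, with no test. Thbs1 over Thbs2 went from between 2.16 and 2.44 with vehicle to between 1.57 and 1.96 with PTH, a mean difference of -0.30 in the log2 ratio, the smallest of the 9. Thbs1 over Postn went from between 2.98 and 3.48 to between 2.10 and 2.44, a mean log2 difference of -0.47. Thbs1 over Sparc went from between 0.420 and 0.536 to between 0.286 and 0.338. The difference was largest for Thbs1 over Fn1, from between 1.89 and 2.17 to between 1.02 and 1.30, or -0.83 on the log2 scale.

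**Figure D3:**
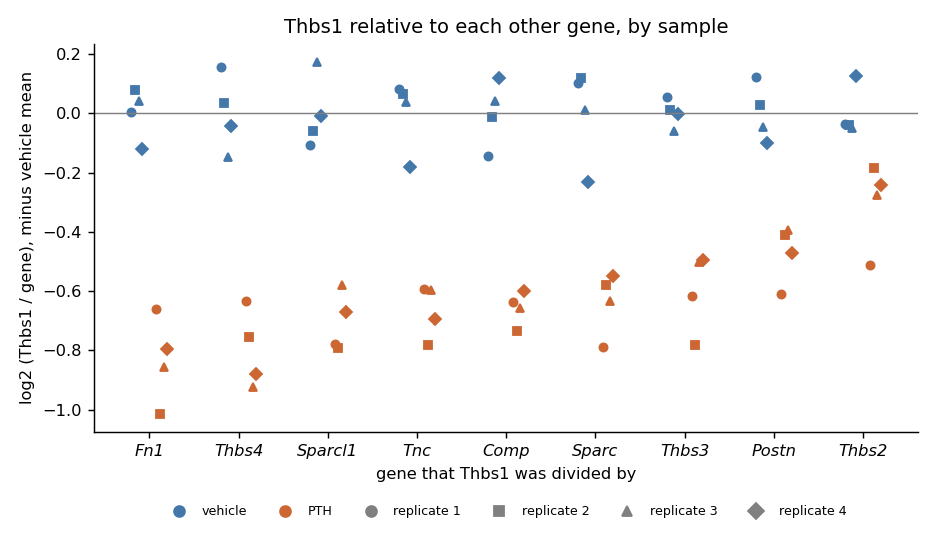
Log2 ratio of Thbs1 to each of the other 9 genes in each sample, minus the mean of the 4 vehicle samples, with genes ordered by the size of the difference. Blue points are vehicle and orange points PTH, and shapes stand for replicates 1 to 4. In every column the PTH points lie below the vehicle points, with the widest gap for Fn1 (mean difference -0.83) and the narrowest for Thbs2 (-0.30).

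Levels were compared between genes per kilobase of the longest annotated transcript, and as levels rather than changes. With vehicle, Sparc had 7283 ± 275 CPM per kilobase, Thbs1 1417 ± 104, Thbs2 632 ± 77.8, Postn 495 ± 20.3 and Fn1 483 ± 17.2. Tnc followed with 67.4 ± 0.972 and Comp with 53.7 ± 7.65, and Thbs3, Thbs4 and Sparcl1 were lowest with 12.5 ± 0.878, 10.2 ± 0.891 and 7.30 ± 0.915 CPM per kilobase. Ranges over the 4 samples overlapped for the neighbours Postn and Fn1 and for Thbs3 and Thbs4, while Thbs2 and Postn were apart by little. With PTH, Thbs1 remained second at 896 ± 99.7 CPM per kilobase, and Fn1, at 542 ± 32.4, had the third highest mean ahead of Thbs2 at 495 ± 90.7 and Postn at 437 ± 70.8. Neighbours among those 3 overlapped, as did Thbs3 and Thbs4. Per kilobase of merged exons, Fn1 stood ahead of Postn with vehicle, and with PTH Thbs2 stood ahead of Fn1 and Thbs4 ahead of Thbs3. The order of these overlapping neighbours therefore was not settled by the data.

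**Figure D4:**
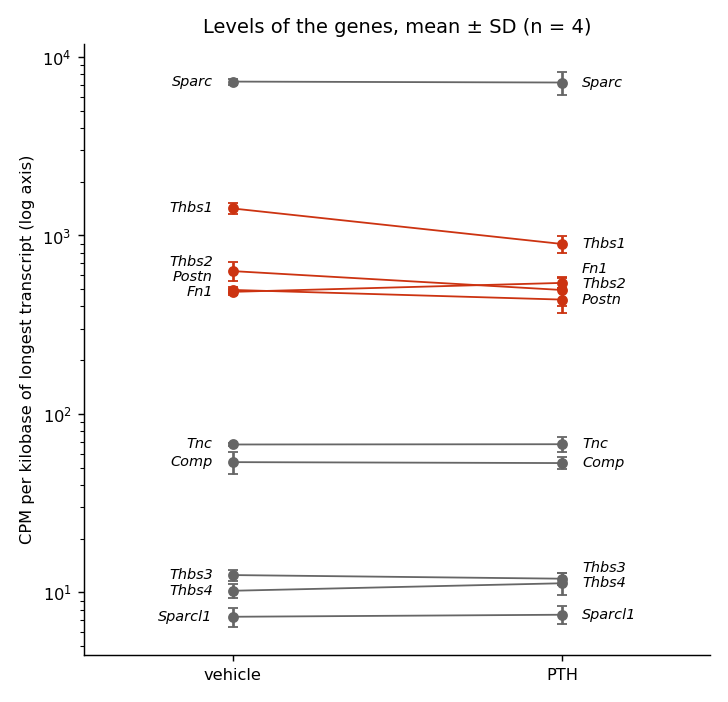
Mean CPM per kilobase of the longest transcript with vehicle and with PTH for each gene, on a log axis, with error bars of 1 SD (n = 4 samples). Lines join the means of 1 gene, and red marks Thbs1, Thbs2, Postn and Fn1, the 4 genes between Sparc and Tnc. Thbs1 goes from 1417 to 896, Sparc has 7283 and 7197, and Fn1 moves from the fifth to the third highest mean.

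Genes that act with these proteins were grouped into 4 lists. Among 16 tested genes of other matricellular and SPARC-family proteins, 2 were higher, 5 lower and 9 did not pass, with a median log2 fold change of -0.02. The 5 that fell were the 5 tested CCN genes, whose modular proteins act as matrix-bound signals. The CCN genes were singled out within the list after their values were seen and were not tested as a group, and 22.5% of all genes tested were lower. Ctgf (CCN2) fell most, from 141, 131, 133 and 123 CPM with vehicle to 37.0, 32.1, 38.4 and 44.2 CPM with PTH (log2 fold change -1.80, edgeR, adjusted p = 1.64e-08). Wisp1 (CCN4) fell from 199.9 ± 15.1 to 107 ± 8.96 CPM (log2 fold change -0.91, edgeR, adjusted p = 1.90e-06). The decreases of Cyr61 (CCN1, log2 fold change -0.44), Wisp2 (CCN5, -0.40) and Nov (CCN3, -0.28) were smaller. The treatments overlapped for Nov (edgeR, adjusted p = 0.0333), which passed the test in 7 of 15 alternative analyses and did not without vehicle replicate 1, 2 or 3 or without PTH replicate 2 or 3 (adjusted p 0.0677 to 0.104). The 2 that rose were Tgfbi, which encodes a periostin relative induced by TGF-β (27.0 ± 1.24 to 81.9 ± 13.3 CPM, log2 fold change 1.60), and the SPARC-family proteoglycan gene Spock2 (45.6 ± 5.57 to 74.6 ± 19.1 CPM, 0.71). Spp1, the gene for the bone matrix protein osteopontin, did not pass, with 515.5 ± 129 CPM with vehicle and 421 ± 49.6 CPM with PTH.

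Of 19 tested receptor genes, 7 were higher and 2 lower with PTH, and the median log2 fold change was 0.10. Sdc4 encodes syndecan-4, a heparan sulfate proteoglycan that binds fibronectin and thrombospondin-1, and it rose from 92.6 ± 11.8 to 508 ± 67.2 CPM (log2 fold change 2.46, edgeR, adjusted p = 7.28e-09). The integrin gene Itgb8 rose from 3.85 ± 0.328 to 11.0 ± 1.83 CPM (log2 fold change 1.52, edgeR, adjusted p = 3.43e-06). Cd47, the gene for a thrombospondin-1 receptor, fell from 103 ± 4.13 to 85.9 ± 8.14 CPM (log2 fold change -0.26, edgeR, adjusted p = 0.0142), and Itga5, the fibronectin receptor subunit, fell from 98.1 ± 3.54 to 84.8 ± 5.63 CPM (-0.21, edgeR, adjusted p = 0.0185). With an offset for transcript length, neither passed the test, at log2 fold changes of -0.19 for Cd47 (edgeR, adjusted p = 0.0543) and -0.14 for Itga5 (0.115). Cd47 did not pass without vehicle replicate 2 (log2 fold change -0.25, edgeR, adjusted p = 0.0525), nor Itga5 without PTH replicate 2 or 3 or vehicle replicate 1 or 3 (0.0521 to 0.0616). The thrombospondin receptor genes Lrp1 (log2 fold change 0.63) and Cd36 (0.35, edgeR, adjusted p = 0.0336) were among the 7 that rose, and Cd36 passed in 8 of 15 alternative analyses. It did not without PTH replicate 2, 3 or 4 or vehicle replicate 1, 2 or 3 (edgeR, adjusted p 0.0607 to 0.105).

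Of 21 matrix glycoprotein genes of the fibronectin and fibrillin network, 4 were higher and 1 lower, with a median log2 fold change of 0.11. Vcan, the versican gene (log2 fold change 0.46), and Ecm1 (0.42) rose most, and the fibulin gene Efemp1 fell by 0.33. Of 16 genes for enzymes that crosslink or cleave these proteins, 4 were higher and 3 lower, with a median of 0.09. Adamts4 and Adamts1 encode proteases of the thrombospondin-repeat family, and every PTH-treated sample exceeded the vehicle samples for both. Adamts4 rose from 43.9 ± 2.02 to 577 ± 79.2 CPM (log2 fold change 3.72, edgeR, adjusted p = 6.20e-11) and Adamts1 from 151 ± 4.94 to 929 ± 54.1 CPM (2.62, edgeR, adjusted p = 6.20e-11). Adamts5, of the same family, fell from 292 ± 3.96 to 155 ± 8.28 CPM (log2 fold change -0.91, edgeR, adjusted p = 1.87e-07). Adamts7, whose protein cleaves Comp, fell from 27.5 ± 3.85 to 21.1 ± 2.58 CPM with overlap between treatments (log2 fold change -0.38, edgeR, adjusted p = 0.0160), and did not pass without PTH replicate 3 (0.0531) or vehicle replicate 2 (0.0569). Each list's shares can be read against the background of 23.3% higher and 22.5% lower, and no list was tested as a set.

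**Figure D5:**
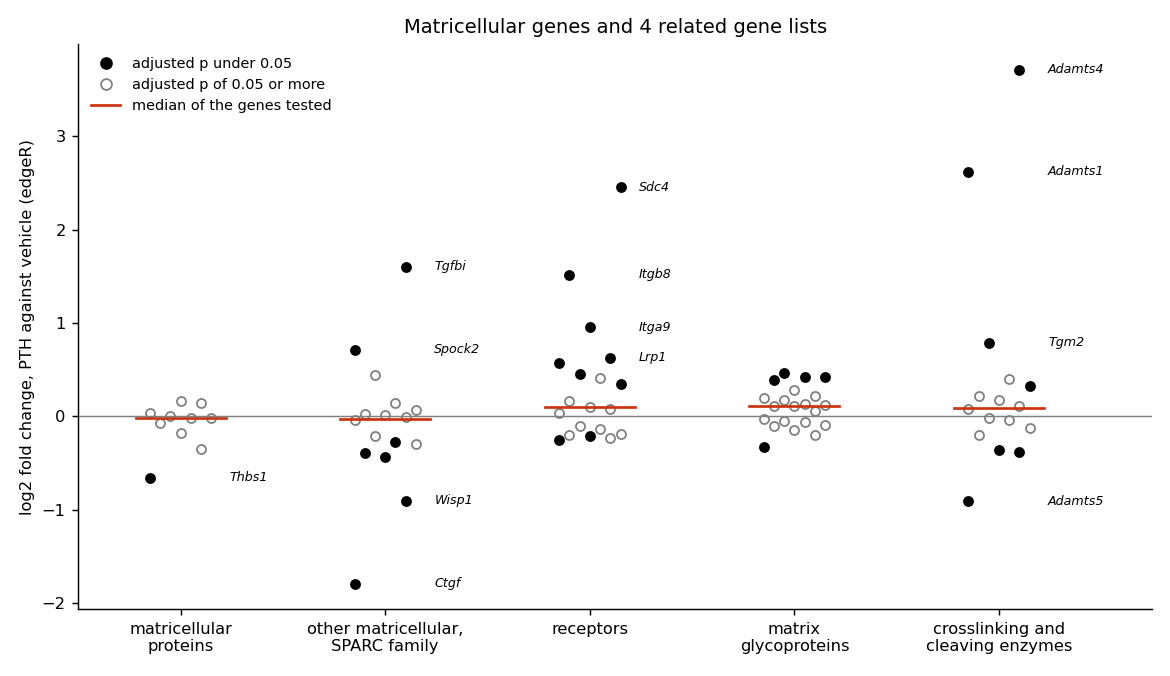
Log2 fold change (edgeR, PTH against vehicle) of every tested gene of the matricellular group and of the 4 related lists. Filled points passed the test, open points did not, and red bars mark each list's median. The medians lie between -0.02 and 0.11, while single genes range from Ctgf at -1.80 to Adamts4 at 3.72.

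The 3 genes whose pattern over the 8 samples was most like that of Thbs1 were Hccs, Zbed3 and Glis2, by the root mean square difference of centred log2 CPM (0.0499, 0.0501 and 0.0510) among 14072 genes whose mean reached 1 CPM. Hccs went from 69.2 ± 4.32 to 43.7 ± 4.05 CPM, Zbed3 from 30.3 ± 1.84 to 19.7 ± 2.27 CPM and Glis2 from 112 ± 8.15 to 69.7 ± 5.57 CPM. Since the treatments make up most of the pattern of Thbs1, a gene that fell by a similar amount is alike by this measure. Thbs2 was not among them.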

How the data were processed

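Poly(A)-enriched libraries of 8 cultures were sequenced as paired reads. The authors used HISAT2 to align reads to GRCm38 and SAMtools to sort them, assembled transcripts by StringTie2 and deposited whole-number counts per gene and sample, made by its companion script from transcript coverage and not normalized. Versions, annotation, strand and the script's read length setting are not given in the sources used here. Each column was mapped to a sample by its title, and 0 per-sample columns were left over. Of 47706 rows, 26477 had any count, and 2 had no symbol (0.00057% to 0.0053% of counts) and were not removed for that. Library sizes held only the genes that passed the low-count filter, such as 56064669 of 56090654 counts in PTH replicate 1.

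The treatments were compared in edgeR 4.0.16 (TMM, filterByExpr with a minimum count of 10 and total of 15, two-sided quasi-likelihood F-test, Benjamini-Hochberg, adjusted p under 0.05, no minimum fold) in R 4.3.3, fitted on all 16736 genes that passed the filter, among them all 10 matricellular genes. Intervals are 95% intervals of the edgeR coefficient. Its standard error was derived as the absolute log2 fold change over the square root of the F statistic. A quantile of the t distribution gave the width of the interval. Single genes were also tested by exact permutation of log2(CPM + 0.1). The model step was tested on simulated counts. Positions, transcripts and lengths came from GENCODE M21, and 46903 rows were matched. Alternatives were DESeq2 1.42.0, edgeR with DESeq2's size factors, no low-count filter, counts halved (for the read length setting), rows summed by symbol, an offset for transcript length, merged exons as length, the replicate number as a block, a minimum log2 fold change of 1 and each sample left out in turn. Tables and plots used pandas 2.3.3, NumPy 2.4.6 and matplotlib 3.10.9 in Python 3.11.15.

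The members and gene lists were chosen with earlier results of these data known. Named are all 10 members, of each related list the 2 called genes with the largest rise and fall at a mean of at least 1 CPM, Tnfsf11 and Pth1r, and the 3 genes most like the member with the largest fall. Cyr61, Wisp2, Nov, Spp1, Lrp1 and Cd36 were named after their values were seen. Markers fixed for the check of cell types were lists of osteoblast, chondrocyte, tendon, muscle, endothelial, macrophage and adipocyte genes. The reads were not analysed here.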

Additional observations from a re-analysis of the deposited data

Results flagged for a closer look

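In 54 groups of 4 samples, each 1 gene under 1 treatment, a sample was set against the others by the gap to its neighbour over the whole range and compared with Dixon's critical value. About 1 in 20 groups passes by chance, and 2 did. For Thbs2, vehicle replicate 4 stood at 3041 CPM, below 3865 to 4000.5 CPM in the rest of its group (gap over range 0.859). For Tnfsf11, PTH replicate 1 stood at 157 CPM, above 115 to 120.2 CPM in the rest (gap over range 0.881).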

How the results depend on the processing

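Thbs1 kept its direction and passed the test in all 15 alternatives that refit the data or leave out a sample (log2 fold change -0.72 to -0.58, adjusted p 9.65e-11 to 0.0049 by edgeR or DESeq2), but its change is under a log2 of 1, and at that minimum 0 members were lower, with 1232 genes higher and 650 lower over the whole table. DESeq2 called 1 member higher (Fn1) and 2 lower (Thbs1 and Thbs2). Among the 20812 genes to which it gave an adjusted p, 4119 were called higher and 3794 lower. With each sample left out in turn, 1 to 3 members were lower (3 without PTH replicate 1 and 2 without vehicle replicate 4), 0 were higher, and the whole table gave 3412 to 4119 higher and 3259 to 3955 lower genes. With a replicate block, 0 members were higher and 1 lower, and 3571 and 3432 genes were higher and lower. Samples of equal number share only a number: their deviations from the treatment means correlated by -0.041 to 0.027 across genes, and 0 of the 4 numbers had its own number as its best match. The receptor list had 2 lower genes in the main analysis and 0 with an offset for transcript length, 1 without PTH replicate 2 or 3 or vehicle replicate 1, 2 or 3, and 6 without PTH replicate 1. DESeq2's size factors in edgeR, on the same genes, shifted the median log2 fold change of all genes by 0.0089. The receptors aside, the enzyme list had 3 lower genes and 1 without PTH replicate 3 or without vehicle replicate 2, and the glycoprotein list had 1 lower gene and 3 without PTH replicate 1. The depth left counts of 627 or more for every member in every sample. Counting error was not estimated apart from the spread between samples.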
